A study of Mus musculus with 3 samples.

Results

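The 9 genes described here belong to the transforming growth factor beta (TGF-beta) pathway and its feedback loops, and they were taken from the 28692 named genes of the wild-type count tables. They are the ligand gene Tgfb1, the receptor genes Tgfbr1 and Tgfbr2, the signal transducer Smad3, the nuclear repressors Ski, Skil and Tgif1, and the inhibitors Smad7 and Pmepa1. The members were chosen by name with their measured values in heart and spleen already known, so the comparison of those tissues is a description and carries no test.

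The measurements are single-cell RNA sequencing of TEa cells, CD4 T cells with a transgenic receptor for the BALB/c I-E alpha alloantigen. Congenically marked naive TEa cells were given to C57BL/6 hosts before these were grafted with BALB/c hearts, and the transferred cells were sorted on day 7. Of the groups, 2 were used: wild-type (WT) TEa cells of the heart allograft and WT TEa cells of the spleen. A library of Ldha-/- TEa cells from the spleen was not analysed by gene here, since its rows carry no gene names in the files used. There was 1 library per group. The number of recipient animals behind each library is not given in the sources used here, so the differences lack a replicate check, and an effect of tissue cannot be told apart from one of library. All TEa cells carry 1 receptor specificity, which limits them as a model of a mixed T cell response, and the wild-type genotype of both groups comes from the series design text.

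TGF-beta is secreted in a latent form and, once released, binds a type II receptor that recruits and activates a type I receptor. The active receptor phosphorylates SMAD2 and SMAD3, which enter the nucleus with SMAD4 and control target genes. Several targets feed back on the pathway: SMAD7 blocks and degrades the type I receptor, PMEPA1 keeps SMAD2 and SMAD3 from the receptor, and SKI, SKIL and TGIF1 repress SMAD complexes in the nucleus. In T cells the pathway is known for restraining effector functions and for inducing CD103, the integrin chain encoded by Itgae, which marks many tissue-resident cells.

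After filtering, 3985 heart and 6568 spleen T cells were kept, with medians of 8235 and 7988 unique molecular identifiers (UMIs, each standing for 1 captured transcript) and 2150 and 2184 detected genes per cell. Levels are given as CPM, the UMIs of a gene summed over the kept cells and scaled to a common library total, with 42223006 UMIs in heart and 56233997 in spleen. A count of 0 would allow a level up to 0.0711 CPM for heart and 0.0533 CPM for spleen. T cell markers together reached 6982 and 6655 CPM, with Trac and Cd4 present in both, while 4 of 4 cardiomyocyte markers were at 0 in both libraries. Monocyte and macrophage markers summed to 328 and 205 CPM, of which Ctss alone gave 206 and 130 CPM, and Adgre1 was at 0 in heart. Fibroblast markers reached 0.213 and 0.107 CPM, and platelet markers 0.237 and 0.196 CPM. Of the cell barcodes, 6 were shared by both wild-type libraries.

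Promoter sequences from RefSeq (build GRCm38.p6) were matched by symbol for 6 of the 9 members, with 11 entries. Each entry spans 300 bases, from 250 before to 50 after an annotated start, and was searched for the SMAD box CAGAC on both strands. The 3 windows printed here show a repressor gene that was much higher in heart, a receptor gene that was not, and a repressor gene with a smaller difference. Only the 250 bases before the start are given, 5′ to 3′ on the gene's strand, with SMAD boxes in capitals (GTCTG is the box on the opposite strand).
Tgif1 (chr17:70851735-70851984, minus strand): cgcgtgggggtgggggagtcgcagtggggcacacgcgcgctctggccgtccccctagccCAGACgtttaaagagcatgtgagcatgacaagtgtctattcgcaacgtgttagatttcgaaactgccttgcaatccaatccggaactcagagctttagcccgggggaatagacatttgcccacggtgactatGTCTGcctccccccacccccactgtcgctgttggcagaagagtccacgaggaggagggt
Tgfbr2 (chr9:116175364-116175613, minus strand): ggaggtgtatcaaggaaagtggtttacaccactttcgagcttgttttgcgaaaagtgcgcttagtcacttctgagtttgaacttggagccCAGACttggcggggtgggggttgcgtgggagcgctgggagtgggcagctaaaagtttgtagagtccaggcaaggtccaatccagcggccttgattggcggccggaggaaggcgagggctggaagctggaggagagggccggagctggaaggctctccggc
Ski (chr4:155222536-155222785, minus strand): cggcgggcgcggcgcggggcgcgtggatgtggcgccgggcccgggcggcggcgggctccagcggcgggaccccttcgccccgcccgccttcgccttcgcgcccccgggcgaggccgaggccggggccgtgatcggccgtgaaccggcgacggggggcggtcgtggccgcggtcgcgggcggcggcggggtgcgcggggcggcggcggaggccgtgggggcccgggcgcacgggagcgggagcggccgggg
The printed Tgif1 window held 2 boxes, the Tgfbr2 window 1 and the Ski window 0. Tgif1 has 5 entries, with 1, 2, 0, 1 and 0 boxes, and the one printed holds the most. Across members, 5 of 11 entries from 3 of 6 genes (Tgfbr1, Tgfbr2 and Tgif1) had a box, beside 49.6% of 32851 promoter windows of the same length. Pmepa1, Smad7 and Skil had no entry and were not searched. Of the searched members at least 2-fold higher in heart, Tgif1 had a box and Tgfb1 had 0. No relation of the box to the tissue difference is read from this, and a short match is a description of letters, not of binding. The AP-1 motif TGANTCA occurred in 0 of the 11 entries and in 7.81% of all windows. It shares no 5-base stretch with the SMAD box.

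Transcripts of the feedback inhibitors and of the nuclear repressors were higher in graft cells, while those of the receptors and of Smad3 differed by less than 2-fold. Of the 9 members, 5 were at least 2-fold higher in heart (Pmepa1, Tgif1, Skil, Smad7 and Tgfb1), beside 9.05% of the 6953 genes that reached 10 CPM in either library. In the other direction, 0 of 9 were at least 2-fold lower, beside 8.5% of those genes. The median log2 ratio of the members was 1.12 and that of all 6953 genes was -0.11. The log2 ratio divides (CPM + 1) of heart by (CPM + 1) of spleen, and it is smaller than the true difference for low genes. All 9 members passed the 10 CPM floor, Pmepa1 and Tgif1 through the heart library alone. These counts were fixed in part by how the members were chosen, and nothing is read from them.

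**Figure D1:**
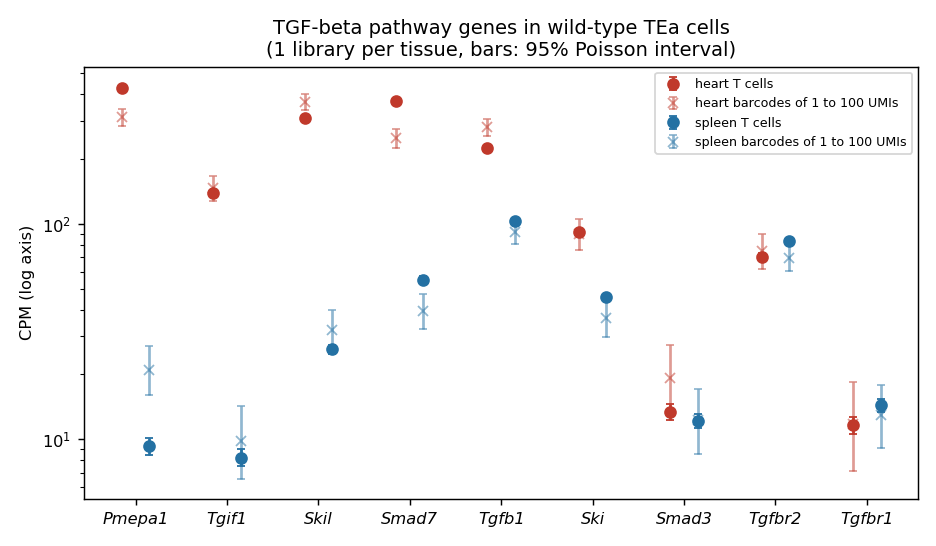
Level of each member (log axis, CPM) in heart and spleen T cells (filled points) and in barcodes of 1 to 100 UMIs, which hold free RNA (crosses); bars are exact 95% Poisson intervals, and there is 1 library per tissue. The heart and spleen points lie far apart for Pmepa1 (427 and 9.28 CPM) and close together for Smad3, Tgfbr1 and Tgfbr2.

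The ligand gene Tgfb1 (ENSMUSG00000002603, chr7:25687002-25705077, plus strand), which encodes the main TGF-beta of lymphocytes, was at 224 CPM in heart (exact 95% Poisson interval 220 to 229) and 102 CPM in spleen (99.9 to 105). The heart level was 2.19-fold that of spleen (exact 95% interval of the ratio 2.12 to 2.26). These and the following intervals cover counting error only and not the spread between animals or libraries. A Tgfb1 UMI was found in 19.1% of heart cells and 9.24% of spleen cells after each cell was thinned to 1000 UMIs, and in 75.7% and 51.8% without thinning. The ligand gene was thus detected in many cells of both tissues, and higher in those from the graft.

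The receptor genes showed no such difference. Tgfbr2 (ENSMUSG00000032440, chr9:116084293-116175360, minus strand), which encodes the ligand-binding type II receptor, was at 70.2 CPM in heart (67.7 to 72.8) and 83.2 CPM in spleen (80.8 to 85.6), a log2 ratio of -0.24. Tgfbr1 (ENSMUSG00000007613), which encodes the type I kinase, was at 11.7 CPM (10.7 to 12.7) and 14.4 CPM (13.4 to 15.4), a log2 ratio of -0.28. Both lay slightly below the median of all genes, and the share of cells with a Tgfbr2 UMI at 1000 UMIs was 8.13% in heart and 7.92% in spleen. The small spleen excess of Tgfbr2 turned into a heart excess when each cell was thinned to 1000 UMIs (0.03) and within the cycling cluster alone (0.25), so no direction is given for it.

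Smad3 (ENSMUSG00000032402, chr9:63646767-63757994, minus strand), the transducer that carries the signal to DNA, was at 13.4 CPM in heart (12.3 to 14.6) and 12.2 CPM in spleen (11.3 to 13.2). The interval of the ratio, 0.981 to 1.23, included 1. Its log2 ratio of 0.13 became -0.03 when the totals were taken without Malat1, mitochondrial and ribosomal protein counts. A Smad3 UMI was seen in 1.30% of thinned heart cells and 1.19% of thinned spleen cells.

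The 3 nuclear repressors were all higher in heart, by unequal amounts. Tgif1 (ENSMUSG00000047407, chr17:70844205-70853546, minus strand), a homeodomain repressor of SMAD complexes, was at 139 CPM in heart (135 to 143) and 8.23 CPM in spleen (7.50 to 9.02), a 16.9-fold difference (15.4 to 18.6). Skil (ENSMUSG00000027660, chr3:31095058-31122577, plus strand), which encodes the SMAD-binding repressor SnoN, was at 308 CPM (303 to 313) and 26.1 CPM (24.8 to 27.5), an 11.8-fold difference (11.2 to 12.4). Ski (ENSMUSG00000029050, chr4:155154075-155222592, minus strand), its close relative, was at 91.6 CPM (88.8 to 94.6) and 45.5 CPM (43.8 to 47.3). Skil and Ski encode related proteins but differed in tissue contrast: the Ski ratio was 2.01 (1.91 to 2.12) and its log2 ratio of 0.99 was just short of 2-fold on the (CPM + 1) scale. With TMM scaling, the Ski log2 ratio was 1.10, which is past 2-fold. Skil UMIs were found in 27.8% of thinned heart cells and 2.56% of thinned spleen cells, Tgif1 UMIs in 14.2% and 0.822%, and Ski UMIs in 9.18% and 4.72%.

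The inhibitors of the receptor step had the largest and the fourth largest log2 ratio among the members. Pmepa1 (ENSMUSG00000038400, chr2:173224458-173276533, minus strand) was at 427 CPM in heart (421 to 434) and 9.28 CPM in spleen (8.50 to 10.1), a 46.0-fold difference (42.2 to 50.3). Its log2 ratio of 5.38 was number 6 of the 6953 genes, where Tgif1 was number 39, Skil 58 and Smad7 116. Smad7 (ENSMUSG00000025880) was at 369 CPM in heart (364 to 375) and 55.0 CPM in spleen (53.1 to 57.0), a 6.72-fold difference (6.46 to 6.99). Most graft cells held transcripts of both inhibitors: without thinning, 91.4% had a Pmepa1 UMI and 90.4% a Smad7 UMI, against 5.69% and 32.3% in spleen. At 1000 UMIs per cell the shares were 34.6% and 32.3% in heart and 0.914% and 5.97% in spleen.

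Free RNA in the droplets carried the same contrast. Barcodes of 1 to 100 UMIs, too small to be cells, had Pmepa1 at 311 CPM in the heart library (285 to 340) and 21.1 CPM in the spleen library (16.1 to 27.1). Heart cells lay above their free RNA for Pmepa1 and for Smad7 (369 CPM in cells and 248 CPM in free RNA), and below it for Skil (308 and 367 CPM) and Tgfb1 (224 and 280 CPM). Spleen cells as a whole lay below their free RNA for Pmepa1, Skil (26.1 CPM in cells and 32.3 CPM in free RNA) and Tgif1 (8.23 and 9.83 CPM). The intervals overlapped for Skil and Tgif1. The summed spleen levels of these genes do not by themselves show expression above background. In heart, Tgif1 (139 and 146 CPM) and Itgae (58.8 and 59.8 CPM) also did not exceed their free RNA. Subtracting the free RNA profile at 5% of each library total left the Pmepa1 log2 ratio at 5.49 and the Smad7 log2 ratio at 2.73.

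Among 87 heart barcodes of a cluster with monocyte and macrophage transcripts, which were removed, Pmepa1 was at 286 CPM and found in 23.0% of barcodes thinned to 1000 UMIs (14.6 to 33.2%, exact Clopper-Pearson). Tgif1 was at 229 CPM, Tgfb1 at 281 and Tgfbr1 at 26.8, above their heart T cell levels of 139, 224 and 11.7 CPM. The other members lay below their heart T cell levels. What these barcodes gave to the heart free RNA was not tested. These barcodes had a median of 24743 UMIs and also held Trac at 1518 CPM, so they contained T cell RNA and are not a Pmepa1-free reference. Scrublet marked 2 heart and 0 spleen barcodes and is not regarded as having worked, so the kept cells can include doublets.

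**Figure D2:**
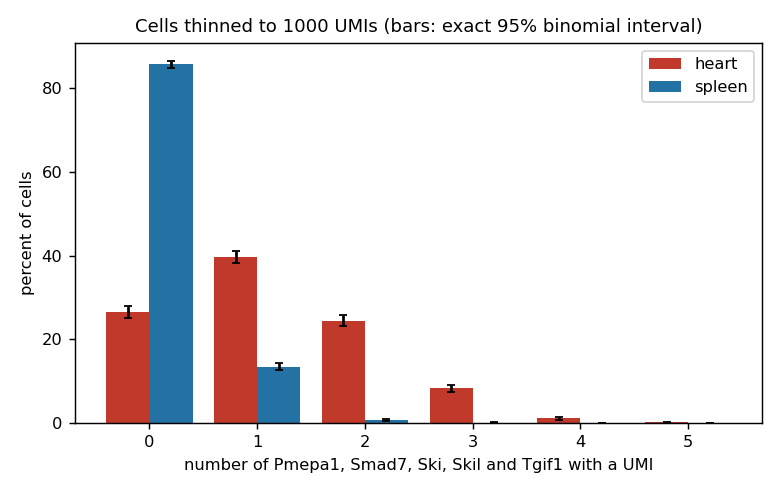
Percent of heart and spleen cells, each thinned to 1000 UMIs, with a UMI of 0 to 5 of the feedback genes Pmepa1, Smad7, Ski, Skil and Tgif1; bars carry exact 95% binomial intervals. Heart cells most often held 1 of the 5 genes (39.7%), and spleen cells most often held 0 (85.8%).

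Counted per cell, transcripts of several feedback genes were found together in the graft. At 1000 UMIs per cell, 24.4% of heart cells held UMIs of 2 of the 5 genes Pmepa1, Smad7, Ski, Skil and Tgif1, 8.26% held 3 and 1.08% held 4. In spleen, 0.716% of cells held 2, 0.0305% held 3, and 0 of 6568 held 4, which allows a share of up to 0.0561%. The overlap in heart was close to what the single shares give: Pmepa1 and Smad7 UMIs met in 11.2% of cells, and the product of their shares was 11.2%. Skil and Tgif1 met in 4.59% of cells, 1.17 times the product, and Smad7 and Tgif1 in 5.27%, 1.15 times the product. Also above the product were Pmepa1 with Ski (1.14) and with Skil (1.14), Smad7 with Skil (1.10) and Ski with Skil (1.08). Below it were Pmepa1 with Tgif1 (0.905), Smad7 with Ski (0.888) and Ski with Tgif1 (0.964). In such sparse counts these ratios are given as a description only.

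**Figure D3:**
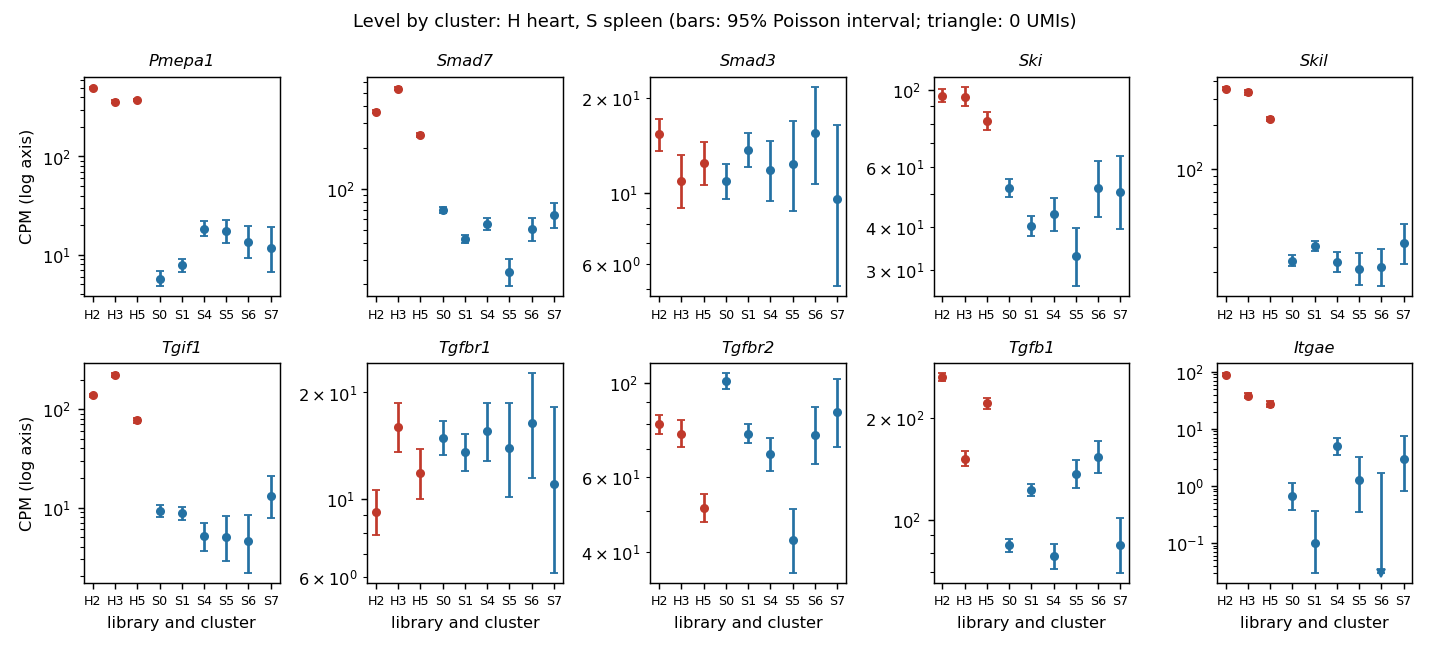
Level of the 9 members and Itgae (log axis, CPM; each panel has its own range) in each cluster with at least 50 cells of a library, H for heart and S for spleen followed by the cluster number; bars are exact 95% Poisson intervals and a triangle marks 0 UMIs. For Pmepa1, Smad7, Skil and Tgif1 every heart point lies above every spleen point, which is not so for Tgfb1, Smad3 and the receptors.

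Pmepa1, Smad7, Skil and Tgif1 were higher in each heart cluster than in any spleen cluster of at least 50 cells. Apart from the cycling cluster, each cluster came almost wholly from 1 tissue, so the kind of cell and the tissue cannot be told apart there. Heart cells fell mainly into 3 clusters, led by Itgae, Cxcr6 and Lgals7 (cluster 2, 2131 cells), by Hspa1b, Hspa1a and Ifng (cluster 3, 1251 cells) and by cell cycle genes (cluster 5, 588 cells). The members were among the genes clustered, so differences between clusters are descriptions. Pmepa1 was at 497, 359 and 376 CPM in heart clusters 2, 3 and 5, and between 5.72 and 18.4 CPM in the 6 spleen clusters. Smad7 ran in another order, 365, 539 and 245 CPM, with 24.4 to 69.6 CPM in spleen. Skil was at 353, 333 and 220 CPM in heart and at 21.2 to 31.6 CPM in spleen. Pmepa1 was thus highest in the cluster led by Itgae, Smad7 in the one led by heat shock genes, and the Poisson intervals of those clusters did not overlap. Tgif1 was at 139, 221 and 76.9 CPM in heart, and it is itself a leading gene of cluster 3. In spleen, Tgif1 stayed between 4.54 and 13.2 CPM.

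Ski was the most even of the repressors, with 96.4, 95.8 and 81.2 CPM in heart clusters and 32.9 to 52.0 CPM in spleen clusters. Tgfb1 overlapped between tissues: heart cluster 3 had 152 CPM and spleen cluster 6, led by sterol synthesis genes, had 154 CPM. Tgfbr2 was lowest in cycling cells of both tissues, with 50.8 CPM in those of heart and 42.7 CPM in those of spleen. Within spleen, Pmepa1 was highest in cluster 4, led by Ccl5, Ccr2 and Il18rap (18.4 CPM, 15.4 to 21.8), and in cycling cells (17.4 CPM, 13.1 to 22.7), and lowest in cluster 0, led by Dapl1 (5.72 CPM, 4.77 to 6.81). The 2 highest spleen values lay within the interval of the spleen free RNA.

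The cycling cluster was the only one with at least 50 cells of each tissue, 588 from heart and 181 from spleen, with medians of 19573.5 and 15722 UMIs per cell. Within it, Pmepa1 was at 376 and 17.4 CPM in heart and spleen, Tgif1 at 76.9 and 5.06, Skil at 220 and 21.2, and Smad7 at 245 and 24.4. The log2 ratios were 4.36, 3.68, 3.31 and 3.28 in that order. Ski had a log2 ratio of 1.28 there, and Tgfb1, at 221 and 136 CPM, one of 0.69. The contrast was thus also present between cells of like cycling state, with 5 of 9 members at least 2-fold higher and Ski, not Tgfb1, among them. This comparison was added after the data had been seen.

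Other library features differed between the tissues. Heat shock transcripts (Hspa1a or Hspa1b) were found in 467 heart cells (11.7%) and 18 spleen cells (0.274%), and without these cells the log2 ratios were 5.40 for Pmepa1, 2.67 for Smad7 and 3.88 for Tgif1. Regulatory T cell markers summed to 229 CPM in heart and 84.4 CPM in spleen, most of it Ikzf2 at 151 and 60.2 CPM, and 0 of 5 markers were at 0. Foxp3 itself was found in 43 heart cells (1.08%) and 15 spleen cells (0.228%), and without them the Pmepa1 log2 ratio was 5.38. The share of UMIs from ribosomal protein genes was 29.8% in heart and 35.2% in spleen, and that from mitochondrial genes 3.23% and 4.60%.

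Genes around the members were read from 8 lists of pathway genes, again with 10 CPM in either library as the floor and 2-fold as the size named. A gene below the floor in 1 library enters only if it is above it in the other, so counts over lists are descriptions, beside 9.05% higher and 8.5% lower among all genes. Of 14 genes for ligands and their activation, 4 passed the floor, 3 were higher and 1 lower, with a median log2 ratio of 1.38. Besides Tgfb1, the higher ones were Furin, the protease that cuts the TGF-beta precursor (81.9 CPM in heart, 15.9 CPM in spleen), and Itgav, the integrin alpha chain that takes part in releasing the latent ligand (51.7 and 15.9 CPM). Nrros, which tethers latent TGF-beta on myeloid cells, was at 10.2 and 26.2 CPM. Furin and Itgav thus moved in the same direction as the ligand gene, and Nrros in the opposite one.

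Of 11 receptor genes, 3 passed the floor and 0 were 2-fold higher or lower, with a median of -0.24. The co-receptor gene Tgfbr3 was at 17.2 and 11.3 CPM. Of 9 SMAD genes, 5 passed, with 1 higher (Smad7), 1 lower and a median of -0.29. The lower one was Smad5, a transducer of bone morphogenetic protein signals (5.40 and 13.0 CPM), which passed the floor through the spleen library alone. The shared partner Smad4 was at 34.3 and 45.0 CPM and the transducer Smad2 at 20.9 and 25.7 CPM. Among SMAD genes the inhibitory Smad7 was therefore the only 1 of the 5 that was 2-fold higher in the graft.

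Of 10 nuclear co-regulators, 9 passed the floor, 2 were higher (Tgif1 and Skil) and 0 lower, with a median of 0.22. The co-repressor Ncor1 had 184 CPM in the graft and 266 CPM in spleen, Trim33 at 22.0 and 33.5, Sin3a at 18.3 and 21.7, and Tgif2, the relative of Tgif1, at 12.2 and 6.08. Ncor1, Trim33 and Sin3a were thus not higher in the graft. Of 14 genes for turnover and feedback, 11 passed, 3 were higher (Pmepa1, Smad7 and Ldlrad4) and 0 lower, with a median of 0.05. Ldlrad4, a relative of Pmepa1 that likewise restrains SMAD activation, was at 122 and 8.94 CPM, a log2 ratio of 3.63. It passed the floor through the heart library alone. The deubiquitinase gene Usp4 was at 17.9 and 31.0 CPM and the ubiquitin ligase gene Wwp1 at 6.61 and 11.5 CPM. Bambi, a pseudoreceptor that blunts TGF-beta signals, was under the floor with 301 UMIs (7.13 CPM) in heart and 5 UMIs (0.0889 CPM) in spleen.

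Of 11 genes known to rise with TGF-beta in T cells, 5 passed the floor, 4 were higher and 0 lower, with a median of 3.30. Itgae was at 58.8 and 1.08 CPM, a 54.2-fold difference (42.1 to 71.1), Spsb1, an adaptor of a ubiquitin ligase, at 45.8 and 3.27 CPM, Junb at 1376 and 138 CPM, and Cd101 at 19.6 and 3.41 CPM. Itgae, Spsb1 and Cd101 passed the floor through the heart library alone, so they could not enter as lower. Nothing is read from the count or the median of this list. Junb is also an early response gene of many other signals. Runx1 was at 42.5 and 63.1 CPM. Under the floor, the chemokine receptor gene Ccr8 was at 9.12 and 0.0889 CPM, and Foxp3 at 2.84 and 0.445 CPM.

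Of 10 genes known to fall with TGF-beta in T cells, 8 passed, 4 were higher, 2 lower and 2 between, with a median of 1.37. The cytotoxic and effector genes Gzmb (334 and 53.0 CPM), Ifng (94.2 and 16.0 CPM), Gzma (67.6 and 15.8 CPM) and Fasl (46.9 and 11.5 CPM) were higher in the graft. The 2 lower ones were Il2, which encodes a T cell growth factor (6.16 and 19.6 CPM), and Myc, which encodes a growth regulator (3.27 and 14.1 CPM). Il2 and Myc passed the floor through the spleen library alone, so they could not enter as higher. The 4 named effector genes reached the floor in both libraries and were higher in the graft. No direction is given for the list as a whole. Of the 5 non-SMAD genes, 4 passed, 1 was higher and 0 lower, with a median of 0.42. Traf4, a receptor-bound adaptor, was at 66.5 and 8.41 CPM, the adaptor gene Tab2 at 67.5 and 46.0, Traf6 at 10.1 and 8.09, and the kinase gene Map3k7 at 16.4 and 16.3. Traf4 and Traf6 passed the floor through the heart library alone.

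Whether the genes vary together among graft cells was read in a way that tissue does not enter. Each cell with at least 2000 UMIs was divided at random into 1000 UMIs, which showed whether it held Pmepa1, and its remaining UMIs, in which levels were measured. In the 1420 Pmepa1-positive and 2555 Pmepa1-negative heart cells, Pmepa1 in the remaining UMIs was at 511 and 379 CPM, a ratio of 1.35 (1.31 to 1.39). Ski was at 104 and 85.3 CPM (ratio 1.22, 1.13 to 1.30), Skil at 329 and 290 CPM (1.13, 1.09 to 1.18), and Smad7 at 390 and 352 CPM (1.11, 1.07 to 1.15). Tgfb1 was at 240 and 217 CPM (1.11, 1.06 to 1.16) and Itgae at 66.6 and 54.2 CPM (1.23, 1.13 to 1.34). Tgif1 was at 135 and 136 CPM and Tgfbr1 at 11.1 and 12.2 CPM, with intervals of the ratio that included 1. In this division Pmepa1-rich graft cells thus had somewhat more Ski, Skil, Smad7, Tgfb1 and Itgae, and no more Tgif1 beyond counting error. Over 20 divisions, given below, the mean log2 ratio of Tgif1 was 0.09 (above 0 in 19) and that of Smad7 0.14. Tgif1 and Smad7 are therefore not set apart. The differences between the Pmepa1 classes are not compared in size with those between the tissues. The classes rest on 1000 UMIs per cell, and the Pmepa1-negative cells still had Pmepa1 at 379 CPM.

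**Figure D4:**
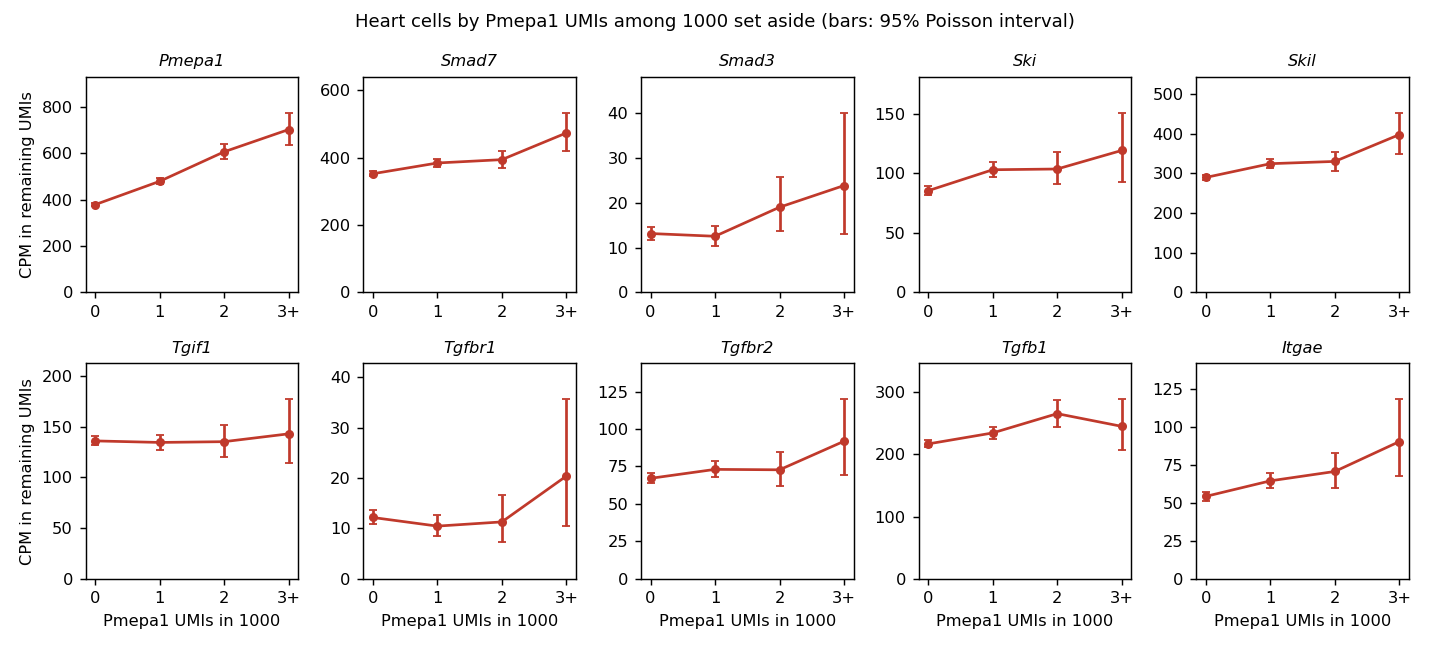
Level of the 9 members and Itgae (CPM in the remaining UMIs) in heart cells with 0, 1, 2 or at least 3 Pmepa1 UMIs among the 1000 set aside (2555, 1089, 263 and 68 cells); bars are exact 95% Poisson intervals. Pmepa1 runs from 379 to 703 CPM and Skil from 290 to 398 CPM, while Tgif1 stays between 134 and 143 CPM.

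In finer classes of 0, 1, 2 and at least 3 Pmepa1 UMIs, Skil was at 290, 325, 330 and 398 CPM, Smad7 at 352, 384, 394 and 473 CPM, and Itgae at 54.2, 64.4, 70.5 and 90.2 CPM. Each was higher in every class than in the class before it, in this single division. For each of these genes the Poisson intervals of 0 and 1 UMI did not overlap. Those of 1 and 2 UMIs did, as did those of 2 and at least 3, so the later steps lie within counting error. Ski was at 85.3, 103, 104 and 119 CPM, and Tgif1 at 136, 134, 135 and 143 CPM. The highest class held 68 cells, and the wide intervals there are counting error.

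The same division within each heart cluster gave like values for Ski and Smad7. The Ski log2 ratio of Pmepa1-positive over Pmepa1-negative cells was 0.27 in cluster 2, 0.35 in cluster 3 and 0.21 in cluster 5, and that of Smad7 was 0.20, 0.12 and 0.13. Skil had 0.09, 0.27 and 0.20. The Itgae log2 ratio was 0.17 in cluster 2, 0.01 in cluster 3 and 0.37 in cluster 5, and that of Tgif1 -0.05, -0.04 and 0.23. In this single division Ski, Skil and Smad7 were therefore higher in the Pmepa1-positive cells of each of the 3 heart clusters, and Tgif1 in 1 of them. The 20 divisions were not made by cluster.

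Over 2269 genes with at least 50 CPM in either class, the median log2 ratio was 0.02 and the 5th to 95th percentile ran from -0.12 to 0.17. The genes with the highest ratios were Lgals7 (0.68), Spsb1 (0.57), Pmepa1 itself (0.43), Slc16a6 (0.33), Jmy (0.33), Ldlrad4 (0.33), AA467197 (0.31) and Nt5e (0.31). Nt5e encodes the ectoenzyme CD73, which makes adenosine. The lowest ratios were those of Hspa1a (-0.75), the lymph node homing receptor gene Ccr7 (-0.63), C1qbp (-0.42) and Ifitm1 (-0.41). Spsb1 and Ldlrad4, read above as TGF-beta-responsive or feedback genes, were thus among the genes that went with Pmepa1 in this division. Other listed genes did not all do so, as given below.

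A single random division is noisy, so 20 divisions were averaged, an addition made after the data had been seen. The mean log2 ratio was 0.43 for Pmepa1, with 0 genes higher, 0.41 for Spsb1, 0.37 for Itgae, 0.33 for Lgals7, 0.31 for Nt5e, 0.31 for Isg15, 0.29 for Ldlrad4 and 0.27 for Neurl3. It was lowest for Hspa1a (-0.68), Ccr7 (-0.39), Klf2 (-0.33) and Tcf7 (-0.27). Of the other genes named from the first division, Jmy had a mean of 0.21, Slc16a6 0.17, C1qbp -0.22 and Ifitm1 -0.15, while AA467197 fell to 0.01, close to the median of all genes. Among the members the mean was 0.20 for Ski, with 23 of 2269 genes higher, 0.18 for Skil, 0.17 for Smad3, 0.16 for Tgfb1, 0.14 for Smad7, 0.10 for Tgfbr2, 0.09 for Tgif1 and 0.06 for Tgfbr1. The mean ratio over the 2269 genes had a 5th to 95th percentile from -0.10 to 0.15. Ski, Skil and Tgfb1 lay above that range, and Smad7, Tgfbr2 and Tgif1 within it. Smad3 and Tgfbr1 were under 50 CPM and are not among those genes, so they are not set against the range. In the first division the Smad3 ratio was 1.08 (0.894 to 1.29), an interval that included 1. Spsb1, Itgae and Ldlrad4 were above 0 in 20 of 20 divisions, and Itgae ran from 0.17 to 0.65 between them. Of other genes known to rise with TGF-beta, Junb had a mean of 0.10, within the range, Cd101 0.11, Ccr8 0.22 and Foxp3 -0.13. Of genes known to fall with it, Tbx21 had 0.09, while Gzmb (-0.15) and Ifng (-0.17) lay below the range. The genes of these lists thus did not all go with Pmepa1. Divisions share the same cells, and their range is not an error.

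**Figure D5:**
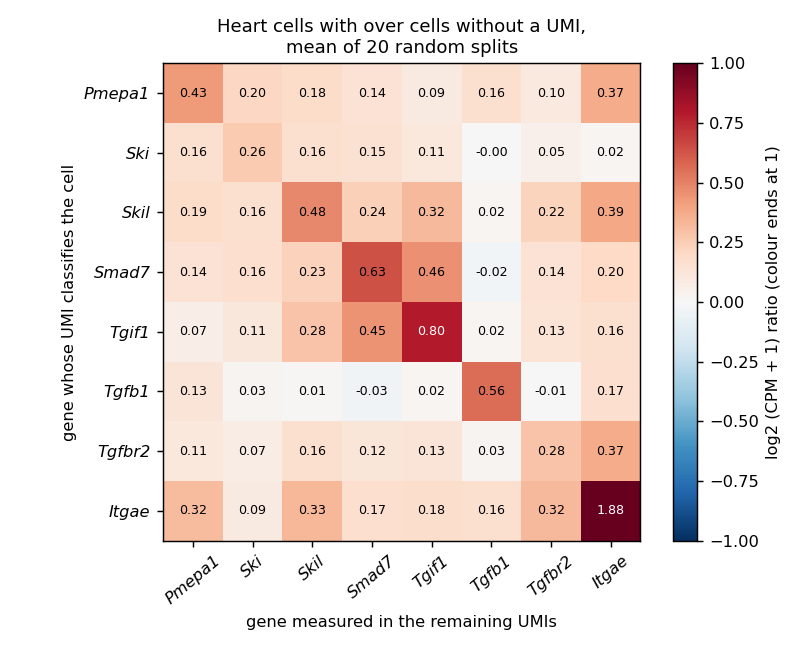
Mean log2 ratio (CPM + 1), over 20 random divisions, of the gene in each column between heart cells with and without a UMI of the gene in each row; the colour scale ends at 1. The values between Smad7 and Tgif1 (0.46 and 0.45) are higher than those between Pmepa1 and Tgif1 (0.09 and 0.07), and the row of Tgfb1 lies between -0.03 and 0.03 for the genes plotted other than Tgfb1 itself, Pmepa1 and Itgae.

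Taking each gene in turn to divide the cells gave unequal values among the feedback genes. Cells with a Smad7 UMI had more Tgif1 (mean log2 ratio 0.46), and cells with a Tgif1 UMI had more Smad7 (0.45). Skil went with Tgif1 (0.32 one way and 0.28 the other) and with Smad7 (0.24 and 0.23). Itgae went with Pmepa1 (0.32 when Itgae divided the cells, 0.37 when Pmepa1 did) and with Skil (0.33 and 0.39). It went as much with the receptor gene Tgfbr2 (0.32 and 0.37), and less with Smad7 (0.17 and 0.20) and Tgif1 (0.18 and 0.16). Smad7 and Tgif1 were both highest in heart cluster 3, and Pmepa1 and Itgae in heart cluster 2. Smad7, Tgif1, Skil and Itgae were all lowest in the cycling cluster among heart clusters. The pair values pool the heart clusters, and whether they hold within a cluster was not tested. Cells with a Tgfb1 UMI differed little in Smad7 (-0.03), Skil (0.01), Tgif1 (0.02) and Ski (0.03). They differed slightly more in Pmepa1 (0.13), Smad3 (0.14, above 0 in 17 of 20 divisions) and Itgae (0.17, above 0 in 18). Cells with a detected ligand transcript thus had little more or less of Smad7, Skil, Tgif1 and Ski. The value of a gene divided by itself was 0.80 for Tgif1, 0.63 for Smad7, 0.56 for Tgfb1, 0.48 for Skil, 0.43 for Pmepa1 and 0.26 for Ski.

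In spleen, 47 of 6553 cells were Pmepa1-positive in the first division. They had 64.5 CPM of Pmepa1 in their remaining UMIs, against 9.02 CPM in the others, a ratio of 7.15 (4.66 to 10.5). The interval of that level, 42.5 to 93.8 CPM, lay above that of the spleen free RNA (16.1 to 27.1 CPM), so a small number of spleen cells held Pmepa1 above both the other cells and the free RNA. For Smad7 (1.27, 0.848 to 1.83), Ski (1.25, 0.802 to 1.87) and Skil (0.915, 0.438 to 1.69) the interval of the ratio included 1, so a difference was not detectable at this depth. Over 20 divisions the mean log2 ratios were 0.10, 0.03 and 0.18 in that order, above 0 in 16, 11 and 14. Tgfbr2 had a mean of -0.35, above 0 in 1 of 20, and its interval in the first division (0.945, 0.649 to 1.33) included 1.

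Across the 9 combinations of cluster and library with at least 50 cells, 3 of them from heart, the genes whose log2 (CPM + 1) was most like that of Pmepa1 were Fosl2 (Pearson r = 0.989), Tnfrsf4 (0.989), Isy1 (0.988), Gna13 (0.988) and Aldoa (0.988). Fosl2 encodes an AP-1 subunit, Tnfrsf4 the costimulatory receptor OX40, Gna13 a G protein subunit and Aldoa a glycolytic enzyme. Among the members, r was 0.965 for Skil, 0.919 for Tgif1, 0.900 for Smad7, 0.877 for Ski and 0.795 for Tgfb1, and it was 0.203 for Smad3, -0.236 for Tgfbr2 and -0.425 for Tgfbr1. The points share library and depth, and the split between tissues sets most of each value. With finer clusters (resolution 1.0), 2 of the 5 genes were again among the first 5.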

How the data were processed

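The deposited values are unnormalized UMI counts for each gene in each barcode, written by Cell Ranger 3.0.2 per the file headers of the wild-type libraries, while mm10, Seurat 4.0.0 and Cell Ranger 7.0.0 stand in the submitters' processing notes. Libraries were made with 10x 3′ chemistry, which reads transcript ends, and the labels' protocols speak of sorted cells and also of a nuclei suspension. How intronic reads were treated is not given in the sources used here. No gene of the Ldha-/- matrix (header: Cell Ranger 7.0.1) was analysed, and its cell barcodes overlapped those of heart in 13 and of spleen in 26 cases.

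Kept barcodes had 1000 or more UMIs, 500 or more genes and no more than 10% of UMIs from mitochondrial genes (4074 heart, 6583 spleen). Scrublet used an expected doublet rate of 0.06, and the 2 marked barcodes were removed. Each cell was scaled to 10000 counts and log-transformed, and 2000 variable genes, 30 principal components and 15 neighbours were used for Leiden clustering at resolution 0.6 (scanpy 1.11.5, leidenalg 0.10.2), with both libraries together and no integration. Of 10 clusters, 1 with monocyte and macrophage markers above its T cell markers was removed (87 heart, 15 spleen barcodes). Clusters were called by number and leading genes.

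Counts were summed over kept cells and given as CPM, with exact 95% intervals (SciPy 1.17.1): Poisson for levels, conditional binomial for ratios and Clopper-Pearson for shares. Ratios of levels used a pseudocount of 1 CPM. With 1 library per group no test was run. Scripts were checked on simulated data. The members and lists were chosen with earlier results of these data known. Named genes were all members and Itgae, up to 4 genes per list with the largest absolute ratio and at least 10 CPM (lists with 5 or fewer such genes in full), the 8 highest and 4 lowest ratios by Pmepa1 UMI, and the 5 genes most like Pmepa1. Bambi, Ccr8 and Foxp3, under the floor, and Il2, Myc and Tbx21 were named after their values were seen, as were the leading genes of the averaged divisions. That choice left out sex-linked, unnamed, haemoglobin, mitochondrial and ribosomal protein genes and receptor segments. Positions of genes were read from GENCODE M21 (GRCm38, which is mm10), where no member shares its strand and bases with another gene. Alternatives were other totals, TMM (edgeR 4.0.16, as a scaling only), other thinning depths, pseudocounts, cell filters, free RNA subtraction and cell subsets.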

Additional observations from a re-analysis of the deposited data

How the results depend on the processing

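Over 13 alternatives to the heart and spleen comparison, 2 of them added after the data were seen, the number of members at least 2-fold higher stayed between 4 and 6 of 9 and the number at least 2-fold lower at 0. The median log2 ratio moved to 0.96 with totals without mitochondrial, ribosomal protein and Malat1 counts, which shifted the median of all genes by -0.17, to 1.23 with TMM scaling, which shifted it by 0.11, and to 1.28 in the cycling cluster alone. Pmepa1, Smad7, Skil and Tgif1 kept their side of 2-fold in 13 of 13 alternatives, Tgfb1 in 11 and Ski in 6. Over the other 11 the log2 ratio ran from 5.20 to 5.54 for Pmepa1, 2.57 to 2.86 for Smad7, 3.36 to 3.68 for Skil and 3.82 to 4.12 for Tgif1. With a floor of 50 CPM, the list of genes known to rise with TGF-beta had 2 higher genes, and no list held a lower one. No paired analysis was possible because each group has 1 library. No library could be left out for the same reason. Depth limits Smad3 and Tgfbr1 most, at 566 and 492 UMIs in heart.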
